A study of Mus musculus with 6 samples.

Results

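The adhesion G protein-coupled receptors were followed in cultured primary mouse osteocytes. They are a family of surface receptors whose genes carry symbols of *Adgr* followed by a subfamily letter and a number. Of the 56748 genes of the count table, 27 protein-coding genes met this rule, and a unitary pseudogene with a similar symbol, *Adgrd2-ps*, did not (0 to 4 counts per library). RNA was sequenced from 6 cultures of cells released from the long bones of mice and grown for 7 days. The methods describe this isolation for 7-week-old C57BL/6 mice and give no separate age for the *Gsdmd*-deficient donors. They state in general that the mice of every experiment were matched for age and sex. WT cultures came from C57BL/6 mice, named C57BL/6J where the methods describe the stimulation (n = 3 libraries), and the libraries labelled cKO came from mice with floxed *Gsdmd* alleles and a Cre transgene driven by the *Dmp1* promoter (Gsdmd fl/fl; DMP1-Cre, n = 3 libraries). All 6 cultures had been given lipopolysaccharide (LPS, 10 ng/mL for 3 h) and then aluminum hydroxide (20 µg/mL for 3 h), so each comparison is between genotypes under stimulation, and unstimulated cultures were not analysed here.

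Members of this family carry a long extracellular part with adhesion modules, a GAIN domain that in many members cuts the receptor into an outer and a membrane-spanning fragment, and the transmembrane core of a G protein-coupled receptor. The start of the membrane-spanning fragment acts as a tethered agonist once the outer fragment is displaced, and many of the known ligands are matrix proteins or proteins on neighbouring cells. The family includes *Adgre1*, which encodes the macrophage surface protein F4/80, the latrophilins (*Adgrl1* to *Adgrl3*), the endothelial receptor *Adgrl4* and *Adgrg6*, which is needed for myelination by Schwann cells.

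The libraries held between 39566835 and 49734046 counts on genes. *Gsdmd* stood at 13.9 ± 0.339 counts per 1000000 (CPM, SD, n = 3) in WT and 22.5 ± 1.33 CPM in the libraries labelled cKO, a log2 fold change of 0.69 (SE 0.083, edgeR adjusted p = 2.27e-06), which goes against the label. Counts summed over the whole gene do not show whether floxed exons are missing, and each direction below rests on the label. *Xist* was counted 0 to 4 times in WT libraries and 44817 to 51216 times in those labelled cKO. *Ddx3y*, *Eif2s3y*, *Uty* and *Kdm5d* were at 0 in every library labelled cKO, so that sex and genotype cannot be told apart. These counts go against the matching for sex that the methods state. Of 8 osteocyte markers 3 were tested: *Pdpn* was lower (log2 fold change -0.28, edgeR adjusted p = 2.99e-05), and *Ackr3* and *Irx5* did not pass. The defining markers were near absent in all libraries (*Sost* 0, *Mepe* 0 to 2, *Dmp1* 0 to 6, *Phex* 2 to 22 and *Fgf23* 0 to 34 counts).

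Of the 27 family members, 19 had enough counts to be tested. At an adjusted p below 0.05 (edgeR quasi-likelihood test over 17146 genes), 5 passed as higher in the libraries labelled cKO, 6 passed as lower, and 8 did not pass. Of all tested genes 20.1% were higher and 19.2% lower by the same rule (39.3% in either direction). With a log2 fold change of at least 1 in size as well, 2 members were higher (*Adgre1* and *Adgrl4*) and 3 lower (*Adgrd1*, *Adgra2* and *Adgrl3*), where 6.56% and 4.64% of all tested genes were. The median log2 fold change of the tested members was -0.13, against 0.01 over all tested genes. The CPM of the 2 groups did not overlap for 4 members above and 9 below WT, and overlapped for 6. Over all tested genes 49.2% did not overlap, 25.3% with the libraries labelled cKO above WT and 23.9% below. In these bulk libraries, fewer cells of a type and less RNA per cell cannot be told apart.

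**Figure D1:**
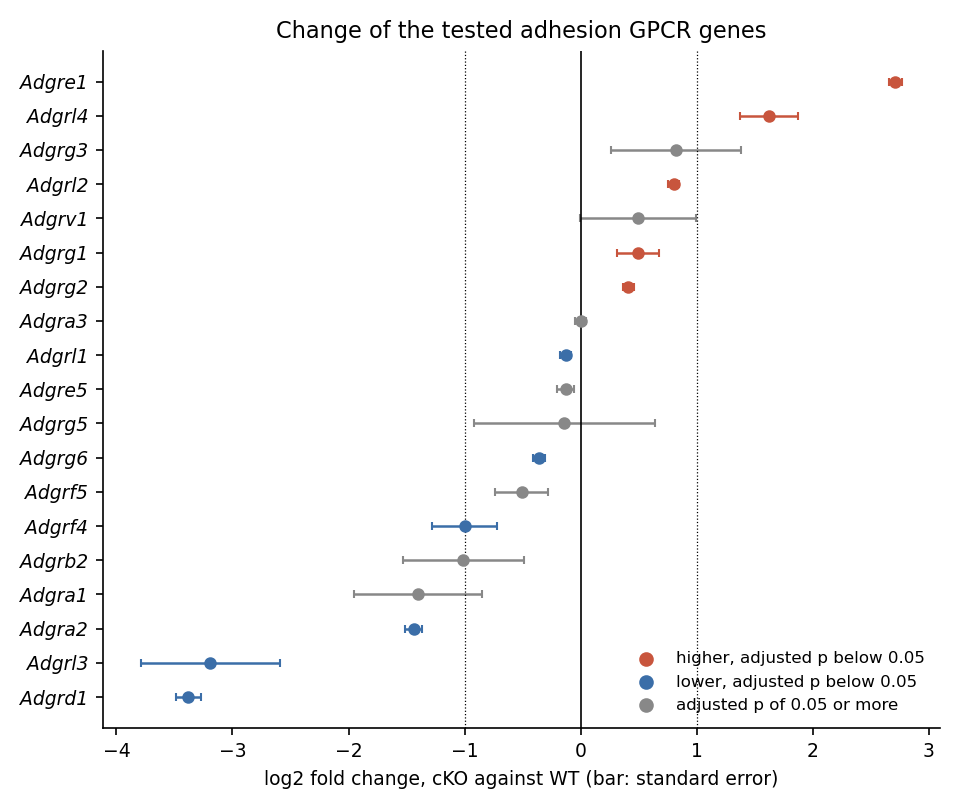
Log2 fold change of the 19 tested adhesion receptors in the libraries labelled cKO against WT (x axis), with standard errors as bars. *Adgre1* lies farthest to the right at 2.71 and *Adgrd1* farthest to the left at -3.38.

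The 8 untested members stayed between 0 and 16 counts in every library. *Adgre4*, *Adgrf3* and *Adgrg4* were at 0 in all 6. *Adgrb1*, known for the uptake of apoptotic cells, had 3, 6 and 4 counts in WT and 16, 8 and 0 in the libraries labelled cKO. *Adgrf2* had 0, 4 and 5 against 2, 6 and 7. *Adgrb3* was counted only in WT library 2 (2 counts), *Adgrf1* only in the library labelled cKO 1 (6 counts) and *Adgrg7* only in the library labelled cKO 2 (8 counts). A count of 0 allows up to 3 counts, which is 0.0605 to 0.0773 CPM in these libraries, for counting error only.

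*Adgre1* changed most among the members that rose. It lies on chromosome 17 (57665691 to 57790527, plus strand, mm39). Its counts were 1517, 1811 and 1513 in WT and 9747, 9382 and 11155 in the libraries labelled cKO, which gives 33.7, 36.5 and 39 CPM against 232, 236 and 246 CPM. The lowest library labelled cKO stood far above the highest WT library. The log2 fold change was 2.71 (SE 0.055, edgeR adjusted p = 1.9e-16), a 6.54-fold difference, and stayed between 2.64 and 2.75 when each library was left out in turn.

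Macrophage markers moved with *Adgre1*. All 16 listed markers were higher past the fold limit, with log2 fold changes of 1.73 (*Cd14*) to 4.42 (*Aif1*) and a median of 3.08. Their summed level was 1190 to 1343 CPM in WT and 6383 to 6697 CPM in the libraries labelled cKO, a ratio of 5.16. Most of that sum was *Lyz2* (986 ± 57.1 CPM in WT, 4518 ± 114 CPM in those labelled cKO, 4.58-fold), so the ratio mostly follows this gene. No marker was at 0 in all libraries. The level of *Adgre1*, which is not in the list, equalled 2.85% ± 0.0424 of the marker sum in WT. In the libraries labelled cKO it equalled 3.61% ± 0.0623 (SD, n = 3). Of the 16 markers, 12 had a larger fold change than *Adgre1*. Their part in the result for *Adgre1* was not tested.

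*Adgre5*, which encodes CD97, was the other tested member of the E subfamily. It stood at 33.0 ± 2.37 CPM in WT and 30.2 ± 1.66 CPM in the libraries labelled cKO and did not pass (log2 fold change -0.13, SE 0.071, edgeR adjusted p = 0.187), with a 95% interval of -0.27 to 0.01. *Adgre5* shares 3198 of its 6645 exon bases with *Ddx39a* on the opposite strand (GENCODE M39, GRCm39), a gene with 1443 to 2104 counts whose own log2 fold change was -0.23. The strand setting of the counting is not given in the sources used here, so reads of these 2 genes may not have been told apart. The genes of a pair of surface proteins that CD97 binds fell. *Cd55*, a brake on complement, went from 18.9 ± 2.29 to 4.39 ± 0.26 CPM (log2 fold change -2.10, SE 0.12, edgeR adjusted p = 1.13e-10). *Thy1* had a log2 fold change of -0.60 (SE 0.050, edgeR adjusted p = 2.32e-08).

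The L subfamily held members that moved in opposite directions, so the promoters of its 4 genes are shown. Each run is the 250 bases upstream of the most upstream RefSeq start listed for the gene in build GRCm38.p6, read 5′ to 3′ on the gene's strand. Capitals mark matches on either strand to any of 3 motifs, which do not overlap each other in these runs. The ETS-type motif was spelled AGGAAG. The TATA-type motif was spelled TATAAA. For the AP-1-type motif the letters were TGACTCA. RefSeq starts may differ from the gene starts behind the deposited counts. The windows were found by gene symbol and not placed against the deposited gene positions, which are in another build (mm39). A window, that of *Adgrl2* included, may therefore lie inside the deposited gene. 
Adgrl1, chr8:83899848-83900097, plus strand: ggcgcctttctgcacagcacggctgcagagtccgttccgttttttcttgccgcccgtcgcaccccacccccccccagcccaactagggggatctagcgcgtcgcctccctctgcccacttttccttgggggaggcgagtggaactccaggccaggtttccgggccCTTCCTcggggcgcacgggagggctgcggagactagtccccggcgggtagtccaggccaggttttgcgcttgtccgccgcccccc
Adgrl2, chr3:148954636-148954885, minus strand: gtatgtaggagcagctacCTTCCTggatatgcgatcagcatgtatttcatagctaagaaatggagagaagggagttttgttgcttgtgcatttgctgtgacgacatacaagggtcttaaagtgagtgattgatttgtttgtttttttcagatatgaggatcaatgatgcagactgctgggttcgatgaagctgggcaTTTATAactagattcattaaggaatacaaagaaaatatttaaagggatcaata
Adgrl3, chr5:81020321-81020570, plus strand: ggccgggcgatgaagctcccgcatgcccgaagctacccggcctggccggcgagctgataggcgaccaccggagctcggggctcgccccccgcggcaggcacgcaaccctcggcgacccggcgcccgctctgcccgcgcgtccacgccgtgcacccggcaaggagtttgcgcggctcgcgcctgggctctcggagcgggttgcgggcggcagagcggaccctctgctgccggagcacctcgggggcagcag
Adgrl4, chr3:151437632-151437881, plus strand: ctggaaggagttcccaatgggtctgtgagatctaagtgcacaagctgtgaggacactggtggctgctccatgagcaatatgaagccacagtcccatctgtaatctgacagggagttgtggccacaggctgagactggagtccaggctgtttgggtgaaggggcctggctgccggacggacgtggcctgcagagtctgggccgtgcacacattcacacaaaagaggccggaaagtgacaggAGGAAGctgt
*Adgrl1* and *Adgrl3* had 21 and 36 CpG dinucleotides in this window and *Adgrl2* and *Adgrl4* had 3 and 5, against a median of 6 (quartiles 2 and 16) over 32851 promoters of the same length. The ETS-type motif stood in the windows of *Adgrl1*, *Adgrl2* and *Adgrl4*, and in 29.5% of all promoters. The TATA-type motif stood in that of *Adgrl2* and in 12.4% of all promoters. The AP-1-type motif, held by 4.46% of all promoters, was in none of these 4. With further RefSeq starts counted as well (of *Adgrf5*, *Adgrg1* and *Adgrl3*), 20 members had 24 windows, of which 8 held the ETS-type, 2 the TATA-type and 3 the AP-1-type motif. *Adgrl3* has 3 RefSeq starts, and the window of the next one (chr5:81020502-81020751, which overlaps the run shown) held the ETS-type and the TATA-type motif once each. A match is a run of letters and was not tested as a binding site. *Adgra2*, *Adgrb1*, *Adgrd1*, *Adgre1*, *Adgre5*, *Adgrf2* and *Adgrf3* had no entry.

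*Adgrl2* and *Adgrl4* were the L members that rose, and they are neighbours on chromosome 3, 2447332 bases apart with 0 protein-coding genes between them in the deposited table. *Adgrl4*, best known from endothelial cells, lies at 151143524 to 151250723 (plus strand, mm39). It had 53, 43 and 44 counts in WT and 150, 132 and 132 in the libraries labelled cKO, which is 1.18, 0.866 and 1.13 CPM against 3.56, 3.32 and 2.91 CPM. Every library labelled cKO was above every WT library, at a low level throughout. The log2 fold change was 1.62 (SE 0.25, edgeR adjusted p = 3.54e-05). *Adgrl2*, a latrophilin, had 77.6, 79 and 81.1 CPM in WT and 137, 136 and 141 CPM in the libraries labelled cKO. It rose from a higher level per length than *Adgrl4* (5.58 against 0.186 CPM per kilobase in WT), with a log2 fold change of 0.80 (SE 0.045, edgeR adjusted p = 1.06e-10).

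Endothelial markers did not move one way beside *Adgrl4*. Of 10 listed markers 9 were tested, 3 rose (*Kdr* 2.04, *Vwf* 1.67 and *Erg* 0.67 on the log2 scale) and 5 fell (*Emcn* -5.91, *Tek* -4.25, *Cdh5* -3.08, *Flt1* -1.12 and *Pecam1* -1.04). *Egfl7* did not pass (-0.46), and *Tie1* was untested at 3 to 24 counts in WT and 0 in the libraries labelled cKO. The lower calls of *Pecam1* and *Flt1* were each lost in at least 1 fit with a library left out (highest adjusted p 0.156 and 0.107). The summed level was 17.1 to 19.1 CPM in WT and 26.6 to 30 CPM in the libraries labelled cKO. Its largest part was *Vwf* (4.46 ± 0.781 CPM in WT and 14.2 ± 1 CPM in the libraries labelled cKO), so the rise of the sum mostly follows this gene. The part of these markers in the result for *Adgrl4* was not tested.

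**Figure D2:**
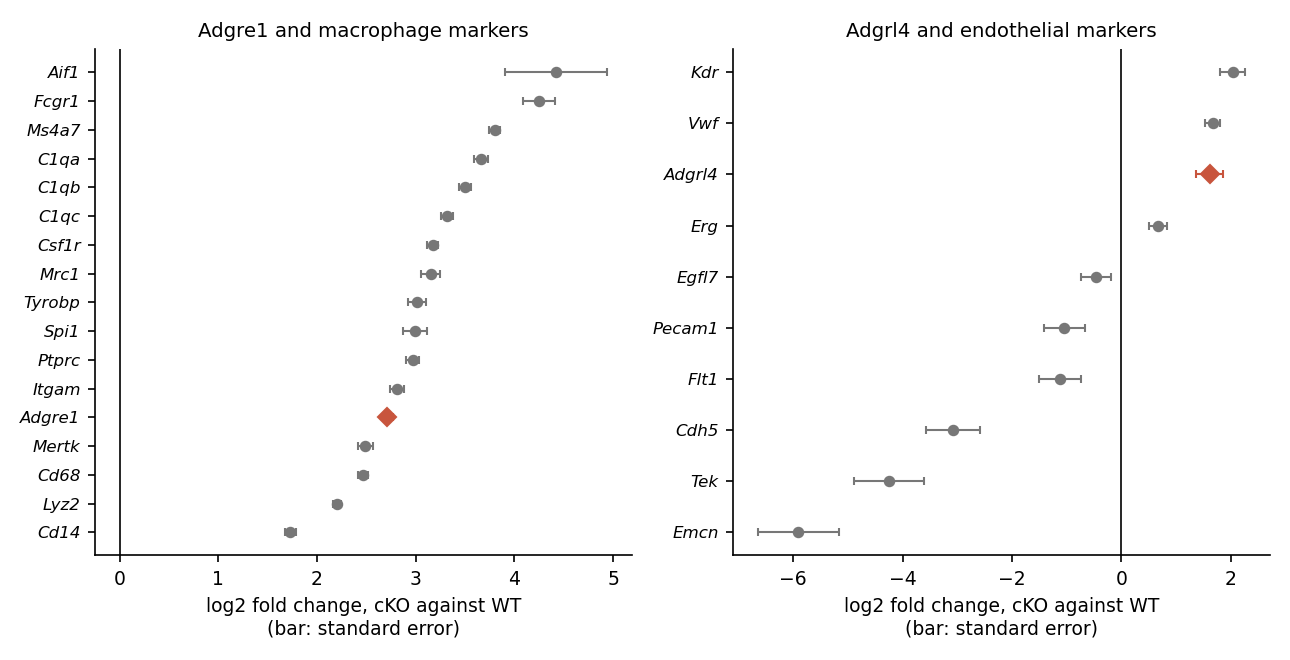
Log2 fold change (x axis, with standard errors) of *Adgre1* among 16 macrophage markers (left) and of *Adgrl4* among 9 tested endothelial markers (right), with the receptor drawn as a red diamond. The macrophage markers all lie to the right of 0, and the endothelial markers lie on both sides, from -5.91 to 2.04.

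*Adgrl3*, a latrophilin best known from neurons, fell from a low level. It lies on chromosome 5 (81167985 to 81972980, plus strand, mm39) and had 62, 38 and 54 counts in WT and 12, 2 and 2 in the libraries labelled cKO, which is 1.38, 0.766 and 1.39 CPM against 0.285, 0.0503 and 0.044 CPM. The groups did not overlap, and the library labelled cKO 1 held 12 of the 16 counts left in its group. The log2 fold change was -3.19 (SE 0.60, edgeR adjusted p = 3.31e-04). Without the library labelled cKO 1 it was -4.56, and over the other libraries left out it lay between -3.44 and -2.77. *Adgrl1* stood at 73.3 ± 2.72 CPM in WT and 66.9 ± 1.9 CPM in the libraries labelled cKO, a small difference at the edge of the threshold (log2 fold change -0.13, SE 0.050, edgeR adjusted p = 0.0477). That call was lost in 5 of the 6 fits with a library left out, all but the one without WT library 1, with adjusted p between 0.0795 and 0.194.

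Partners of the latrophilins also differed in direction. *Tenm3*, a teneurin, fell from 47.4 ± 2.6 to 16.1 ± 1.6 CPM (log2 fold change -1.55, SE 0.078, edgeR adjusted p = 2.26e-11). *Flrt1* fell too (log2 fold change -1.23, SE 0.36, edgeR adjusted p = 0.0106), with the call lost without WT library 1 (adjusted p = 0.0679) or without the library labelled cKO 3 (adjusted p = 0.0589). *Flrt3* rose (log2 fold change 0.71, SE 0.15, edgeR adjusted p = 1.11e-03). *Flrt2* (0.05), *Tenm4* (0.43) and *Nrxn2* (-0.25) did not pass, and *Tenm1* and *Tenm2* stayed at 4 counts or fewer. *Nrxn3* had 7, 10 and 10 counts in WT and 0 in each library labelled cKO and was not tested.

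*Adgrd1*, which encodes GPR133, changed most among the members that fell. It lies on chromosome 5 (129173814 to 129281663, plus strand, mm39). Its counts were 1518, 1857 and 1511 in WT and 163, 153 and 131 in the libraries labelled cKO, and its CPM were 33.7, 37.4 and 38.9 against 3.87, 3.85 and 2.88. The groups were separated by a wide gap. The log2 fold change was -3.38 (SE 0.11, edgeR adjusted p = 6.71e-14), a 10.4-fold lower level, and lay between -3.45 and -3.25 with each library left out. *Adgrd1* shares 71 exon bases with the pseudogene *Rps16-ps2* on the opposite strand, which had 909 to 1499 counts, up to 875% of those of *Adgrd1* in the same library, and a log2 fold change of -0.09 (edgeR adjusted p = 0.467). With the strand setting unknown, its reads may not have been told apart from those of *Adgrd1*. Its reported partners *Ptk7* and *Plxdc2* fell by far less, by 0.25 (edgeR adjusted p = 4.07e-04) and 0.32 (edgeR adjusted p = 4.38e-06) on the log2 scale.

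*Adgra2*, which encodes GPR124 and acts with RECK as a coreceptor for WNT7 ligands in brain vessels, fell as well. It lies on chromosome 8 (27575611 to 27613464, plus strand, mm39). Its counts were 2748, 2870 and 2812 in WT and 962, 912 and 1116 in the libraries labelled cKO, which is 61.1, 57.8 and 72.4 CPM against 22.9, 22.9 and 24.6 CPM. The libraries labelled cKO lay close together below all WT libraries. The log2 fold change was -1.44 (SE 0.077, edgeR adjusted p = 5.22e-11), a 2.72-fold lower level. *Brf2* overlaps 264 of the 6886 exon bases of *Adgra2* on the opposite strand, with 311 to 557 counts and a log2 fold change of 0.16 (edgeR adjusted p = 0.367).

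Of the partners of *Adgra2*, *Reck* was slightly higher (103 ± 1.84 against 119 ± 2.81 CPM, log2 fold change 0.21, edgeR adjusted p = 1.03e-03), *Wnt7a* was at 0 in all libraries and *Wnt7b* at 0 to 8 counts. Pericyte markers were among the lists checked, and 4 of 5 tested were lower (*Notch3* -1.10, *Rgs5* -1.65, *Mcam* -1.68 and *Abcc9* -2.63 on the log2 scale). The 1 that was higher was *Cspg4* (0.22). The summed level of the list was 163 to 183 CPM in WT and 153 to 169 CPM in the libraries labelled cKO. Most of it was *Cspg4* (119 ± 7 CPM in WT and 139 ± 8.2 CPM in the libraries labelled cKO).

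The other A members did not pass. *Adgra3* (GPR125) was measured at 78.7 ± 3.33 CPM in WT and 78.7 ± 0.969 CPM in the libraries labelled cKO, a log2 fold change of 0.00 with a 95% interval of -0.09 to 0.10. *Adgra1* had 48, 23 and 22 counts in WT and 8, 18 and 7 in the libraries labelled cKO. Its groups did not overlap, and its log2 fold change of -1.40 (SE 0.55) had an edgeR adjusted p of 0.0518. It passed in several other fits and reached -2.01 (edgeR adjusted p = 0.0267) without the library labelled cKO 2. Without WT library 1 it was -0.97 (edgeR adjusted p = 0.276). It also did not pass without WT library 3 (adjusted p = 0.0526) or without the library labelled cKO 1 (0.168) or cKO 3 (0.197).

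**Figure D3:**
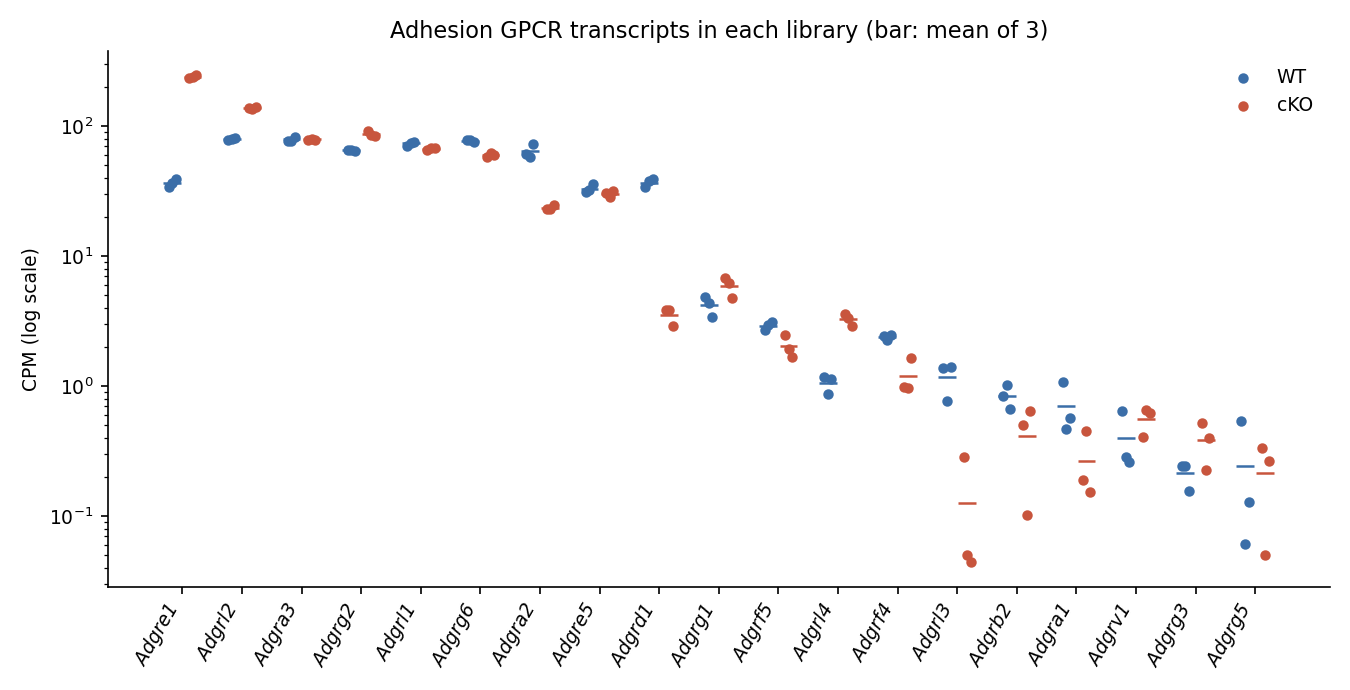
Level of the 19 tested adhesion receptors in each library in CPM (y axis, log scale), with WT libraries in blue, those labelled cKO in red and bars at the group means (n = 3). *Adgre1* (33.7 to 39 against 232 to 246 CPM) and *Adgrd1* (33.7 to 38.9 against 2.88 to 3.87 CPM) moved apart from WT in opposite directions.

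In the G subfamily the changes were smaller. *Adgrg2*, known for its role in the epididymis and carried on the X chromosome, had 65.3, 65.7 and 64.2 CPM in WT and 90.7, 85.1 and 83.4 CPM in the libraries labelled cKO. Its groups were separate, and the log2 fold change was 0.41 (SE 0.049, edgeR adjusted p = 2.68e-06). Of the 542 tested genes on the X chromosome other than *Xist* and *Tsix*, 22.7% were higher, against 20.0% of autosomal genes, with medians of 0.00 and 0.01 on the log2 scale. *Adgrg6* fell from 76.5 ± 1.62 to 59.7 ± 2.51 CPM (log2 fold change -0.36, SE 0.050, edgeR adjusted p = 1.59e-05). Schwann cell markers stood at 2.06 to 2.56 CPM in sum in WT and 1.21 to 2.62 CPM in the libraries labelled cKO, and none of the 3 tested passed.

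The matrix partners of *Adgrg6* fell by more than the receptor. *Col4a1*, a chain of the basement membrane collagen, went from 732 ± 49.4 to 199.7 ± 4.99 CPM (log2 fold change -1.87, SE 0.047, edgeR adjusted p = 2.25e-15). *Lama2*, a laminin chain, went from 50.6 ± 1.5 to 17.7 ± 1.03 CPM (log2 fold change -1.51, SE 0.066, edgeR adjusted p = 3.65e-12). The prion protein gene *Prnp*, whose product is a further ligand, did not pass (-0.06, edgeR adjusted p = 0.248).

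*Adgrg1* (GPR56), *Adgrg3* and *Adgrg5* lie side by side on chromosome 8, with gaps of 31470 and 3474 bases. *Adgrg1* had 218, 216 and 131 counts in WT and 285, 247 and 215 in the libraries labelled cKO, which is 4.84, 4.35 and 3.37 CPM against 6.77, 6.21 and 4.73 CPM. The groups overlapped, since WT library 1 exceeded the library labelled cKO 3. The gene passed (log2 fold change 0.49, SE 0.18, edgeR adjusted p = 0.0404), but the call was lost in 4 of the 6 fits with a library left out (without WT library 2 or 3, or without the library labelled cKO 1 or 2), with adjusted p between 0.0642 and 0.18. *Adgrg3* (6 to 12 counts in WT, 9 to 22 in the libraries labelled cKO) and *Adgrg5* (3 to 24 and 2 to 14) did not pass. Of the ligands of *Adgrg1*, *Tgm2*, which encodes a transglutaminase, rose from 100.4 ± 9.43 to 166 ± 6.55 CPM (log2 fold change 0.73, SE 0.058, edgeR adjusted p = 1.44e-08). *Col3a1* was higher by 0.13 on the log2 scale (edgeR adjusted p = 4.66e-03), and its call was lost without WT library 1 (adjusted p = 0.0528).

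In the F subfamily, *Adgrf4* had 110, 111 and 96 counts in WT and 41, 38 and 74 in the libraries labelled cKO. Its groups did not overlap, and its log2 fold change (-1.0 after rounding, SE 0.28, edgeR adjusted p = 0.00816) fell just short of the fold limit. *Adgrf5* (GPR116), which regulates surfactant in the lung, stood at 2.89 ± 0.214 CPM in WT and 2.03 ± 0.407 CPM in the libraries labelled cKO. It did not pass (log2 fold change -0.51, SE 0.23, edgeR adjusted p = 0.0847), although its groups did not overlap, and it passed without the library labelled cKO 1 (adjusted p = 0.0498). With any other library left out it did not pass (adjusted p between 0.0892 and 0.263). Of its partners, *Fndc4* did not pass (0.14) and *Sftpd* was at 0 in all libraries.

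In the B subfamily, *Adgrb2* had 38, 50 and 26 counts in WT and 21, 4 and 29 in the libraries labelled cKO, and its log2 fold change of -1.01 (SE 0.52) had an edgeR adjusted p of 0.138. *C1ql3*, which encodes a secreted ligand of *Adgrb3*, fell from 87, 121 and 75 counts to 18, 20 and 24 (log2 fold change -2.11, SE 0.31, edgeR adjusted p = 3.03e-05), while *Adgrb3* itself was all but absent. *C1ql1*, *C1ql2* and *C1ql4* had 4 counts or fewer in every library, and *Rtn4r*, a partner of *Adgrb1*, did not pass (0.18). *Adgrv1*, the very large receptor of hair cells, lay between 10 and 29 counts in WT, and between 17 and 28 in the libraries labelled cKO, and did not pass. The cadherin receptors of the C subfamily, which carry *Celsr* symbols and so fall outside the rule, were read beside the family. *Celsr3* fell (9.65 ± 0.243 to 5.95 ± 0.191 CPM, log2 fold change -0.70, SE 0.12, edgeR adjusted p = 1.24e-04), *Celsr2* did not pass (-0.14, edgeR adjusted p = 0.781) and *Celsr1*, untested, stayed low (8, 12 and 14 in WT, and 4, 2 and 4 in the libraries labelled cKO).

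Levels were ordered across members by CPM per kilobase of gene length, with ranges over the 3 libraries of a group. In WT, *Adgrg2* was first (12.3 ± 0.148 CPM per kilobase), followed by *Adgre1* (11.2 ± 0.815), *Adgra2* (11.0 ± 1.33), *Adgra3* (9.70 ± 0.411), *Adgre5* (8.77 ± 0.632) and *Adgrl1* (8.53 ± 0.316). From *Adgre1* to *Adgrl1* neighbours overlapped in range, and *Adgra2* (10 to 12.5) also overlapped with *Adgrg2* (12.2 to 12.5). The order of such overlapping members is not fixed by the data. *Adgrg2* did lie above *Adgre1* (10.4 to 12), and *Adgre1* above *Adgra3* (9.43 to 10.2). *Adgrg6* (6.25), *Adgrl2* (5.58) and *Adgrd1* (4.41) came next without overlap, and the other members were at 0.779 CPM per kilobase or below. In the libraries labelled cKO, *Adgre1* stood alone at 73.4 ± 2.2 CPM per kilobase, followed by *Adgrg2* (16.4 ± 0.727), *Adgrl2* and *Adgra3* (9.70 each, overlapping). *Adgra2* was the eighth at 4.06 CPM per kilobase, and *Adgrd1* was the eleventh at 0.425 and overlapped with *Adgrf4*.

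The summed level of the family per length was 80.4 ± 3.25 CPM per kilobase in WT and 137 ± 2.12 in the libraries labelled cKO. Without *Adgre1* it was 69.2 ± 2.51 and 63.6 ± 0.554, so the higher sum was carried by *Adgre1*. That gene made up 14.0% ± 0.544 of the sum in WT and 53.6% ± 0.829 in the libraries labelled cKO. Over the same groups the share of *Adgra2* was 13.7% and 2.96%, that of *Adgrd1* 5.48% and 0.311% and that of *Adgrg2* 15.4% and 12.0%. The share of *Adgrl2* was 6.94% and 7.08%, although its own level rose.

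**Figure D4:**
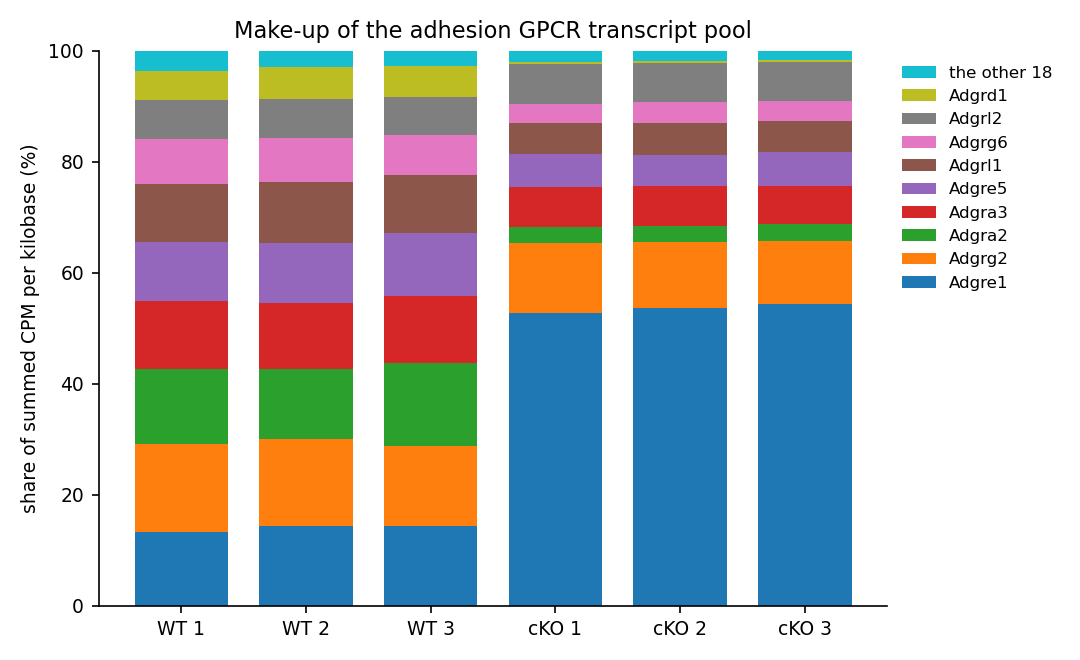
Share of each adhesion receptor in the family's summed CPM per kilobase, in percent, for each of the 6 libraries (x axis), with the other 18 members drawn as one segment. *Adgre1* takes 13.3% to 14.3% in the WT libraries and 52.7% to 54.4% in those labelled cKO.

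Of 29 listed ligands and partners 19 were tested, of which 4 were higher, 9 lower and 6 did not pass, where 20.1% of all tested genes were higher and 19.2% lower. Past the fold limit 0 were higher and 6 lower (6.56% and 4.64% of all tested genes), namely *C1ql3*, *Cd55*, *Col4a1*, *Tenm3*, *Lama2* and *Flrt1*. The median log2 fold change of the list was -0.25, against 0.01 over all tested genes. The direction of a partner did not always follow that of its receptor. *Tenm3* and *Flrt1* fell while *Adgrl2* rose and *Adgrl3* fell, and *Cd55* fell while *Adgre5* did not pass.

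**Figure D5:**
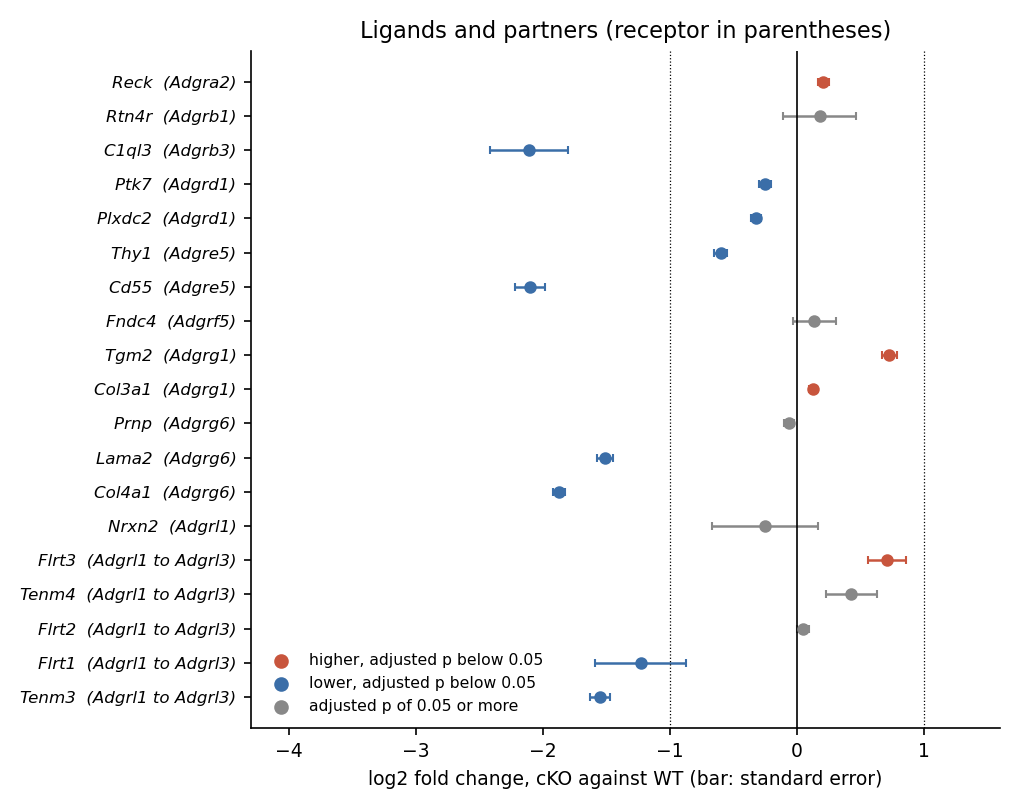
Log2 fold change (x axis, with standard errors) of the 19 tested ligands and partners, each with its receptor in parentheses and dotted lines at the fold limit. The 6 genes past the limit all lie on the lower side, from *C1ql3* at -2.11 to *Flrt1* at -1.23.

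Downstream of the receptors, 17 G protein alpha subunits, arrestins and engulfment adaptors were all tested, and 7 were higher, 6 lower and 4 did not pass, beside the same 20.1% and 19.2% of all tested genes. Past the fold limit, with 6.56% of all tested genes higher and 4.64% lower, were *Arrb2*, an arrestin (2.80 on the log2 scale), *Gna15*, a subunit of the Gq class (2.26), and *Gnao1*, a subunit of the Gi class (1.09), which rose, and *Gnaz* (-1.09), which fell. The subunit genes of the G12 class, to which several adhesion receptors couple, moved in opposite directions, with *Gna12* higher (0.34, edgeR adjusted p = 6.62e-05) and *Gna13* lower (-0.42, edgeR adjusted p = 3.69e-06). *Gnas*, which encodes the stimulatory subunit, fell from 1105 ± 56.2 to 873 ± 19 CPM (log2 fold change -0.34, edgeR adjusted p = 1.38e-06). *Elmo1* and *Dock1*, the engulfment adaptors downstream of *Adgrb1*, had log2 fold changes of 0.90 and -0.19, both past the test.

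The remaining marker lists are given as counts of tested genes. Of 6 osteoblast markers 2 were higher and 4 lower, with *Col1a1* at -0.67 and *Ibsp* at 2.01 on the log2 scale. Of 7 chondrocyte markers 6 were higher and 1 (*Col2a1*, -0.84) lower. Both tested neutrophil markers (*S100a8* 1.61 and *Camp* 0.49) and both tested adipocyte markers (*Pparg* 0.80 and *Fabp4* 0.78) were higher, with the call of *Camp* lost in at least 1 fit with a library left out (highest adjusted p 0.17) and the other 6 neutrophil markers at 10 counts or fewer. No lymphocyte marker had enough counts to be tested. Their part in the receptor results was not tested.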

How the data were processed

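RNA from 6 stimulated osteocyte cultures (3 WT, 3 labelled cKO) was sequenced as 150 bp read pairs. The authors trimmed the reads, aligned them to mm39 with HISAT2 2.0.5 and counted them on genes with featureCounts, release 1.55.0-p3 per the labels (the methods name another release, and also RSEM). The strand setting is not given in the sources used here. The deposited values are raw counts per gene with a gene length in bases. Between 63.3% and 65.6% of the counts from 1 to 10 were even, as when both mates are counted.

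Groups came from the sample titles. The labels do not say whether the libraries came from separate animals, so p-values measure only the spread between these libraries, which may be technical. No 2 libraries of a group agreed within sampling noise (chi-square per gene 4.81 to 13.9). From the counts, edgeR 4.0.16 in R 4.3.3 (filterByExpr, TMM, glmQLFit without robust estimation, glmQLFTest, genotype as the only term) gave each gene's log2 fold change with its standard error and a p-value adjusted by Benjamini-Hochberg over 17146 genes. CPM are counts over the TMM-scaled library size, times 1000000. The biological coefficient of variation was 8.36%. On simulated data (17146 genes, 16831 after the filter), 92 of 100 genes changed by 2 on the log2 scale and 67 of 100 changed by 1 were recovered, and 18 unchanged genes were called. The simulation changed a far smaller part of the genes than the 39.3% called in these data, so the recovered shares need not hold here.

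The receptors and the lists of partners, transducers and markers were chosen with earlier results of these data known. Every receptor is named, those past both limits with each library's value, with the *Celsr* genes, partners past both limits or paired with such a receptor, and *Gsdmd* and the sex markers. Further partners, transducers and markers were named after their values were seen. Alternatives were DESeq2 1.42.0, limma-voom (limma 3.58.1), other normalizations and filters, robust estimation, halved counts, a replicate block and each library left out. Positions are those of the deposited table, exon overlaps come from GENCODE M39, in which 27 of 27 members overlapped their gene, and promoters from RefSeq (GRCm38.p6). Protein sequences were not used here. The values of 1 listed partner are not reported here.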

Additional observations from a re-analysis of the deposited data

How the results depend on the processing

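The counts of 5 higher and 6 lower members became 2 and 3 with the fold limit, and otherwise stayed between 4 and 5 and between 5 and 7. With each library left out, 4 to 5 members were higher and 5 to 6 lower, 4 to 4 partners higher and 8 to 10 lower, and 7 to 7 transducers higher and 5 to 6 lower. Of 297 refitted member values 268 kept direction and side of the threshold, 13 lost the call (*Adgrg1*, *Adgrl1*) and 8 gained it (*Adgra1*, *Adgrf5*). The direction turned for 8, none past the threshold. These were *Adgra3* (-0.01 with DESeq2, -0.01 with its size factors, and -0.03 to 0.03 with each library left out, below 0 without WT library 1, WT library 2 or the library labelled cKO 2) and *Adgrg5* (0.09 with limma-voom, and -0.62 to 1.2 with each library left out, above 0 without WT library 1 or the library labelled cKO 2), and the cause was not tested. The calls of *Adgre1*, *Adgrl4*, *Adgrl2*, *Adgrg2*, *Adgrd1*, *Adgra2*, *Adgrl3*, *Adgrf4* and *Adgrg6* held in every alternative that tested them. With at least 10 counts in every library *Adgra1*, *Adgrb2*, *Adgrg3*, *Adgrg5* and *Adgrl3* gave no value, nor did *Adgrg3* and *Adgrg5* with halved counts. Same-numbered libraries did not deviate together (r between -0.01 and 0.002). The numbers thus showed no sign of a pairing, though so few libraries cannot exclude one. With the replicate block, 5 members were higher and 5 lower, and *Adgrl1* lost its call (adjusted p = 0.0581). No scaling moved the median of all tested genes by more than 0.02 on the log2 scale. Members under about 50 counts per library, among them *Adgra1*, *Adgrb2*, *Adgrg3*, *Adgrg5* and *Adgrv1*, had standard errors of 0.50 to 0.78, which limits what could be detected in them at this depth.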
